A study of Drosophila melanogaster with 3 samples.

Results

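Heterochromatin protein genes of the fly were examined for binding of Dek, a conserved chromatin-associated protein. The 8 genes, chosen by symbol in the dm6 annotation, were Su(var)205, HP1b, HP1c, HP4, HP5, Su(var)3-9, Su(var)3-7 and Su(var)2-10, and all 8 were found among 13968 protein-coding genes. The DNA came from chromatin immunoprecipitation and sequencing (ChIP-seq) of whole Drosophila melanogaster embryos, both sexes together, aged 0 to 24 h. The line, named Dek in the labels, carries an insertion for stable production of Dek joined at its C terminus to GFP, and the antibody was against GFP. The sources used here do not say what drives the transgene or which cells make it. All 3 biological replicates formed 1 group, with no untagged line, other condition or input library among them. Each peak list marks, for every peak, a summit and the authors' signal, in a unit that the sources used here do not give.

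The authors deposited a list per replicate and a pooled list, each of 30000 peaks, and a list of 4736 peaks kept after a threshold on the irreproducible discovery rate (IDR), called IDR peaks here. They are, peak for peak, the top 4736 of the pooled list. Sequencing depth is unknown, so signals were compared only within a list, and lists were set side by side by place, where place 1 is the strongest peak. Whole embryos mix cell types, so strong binding in few cells and weak binding in many cannot be told apart. The lowest −log10 q was 3.25 in the IDR list but only 0.186 to 0.407 in the other lists, whose weak ends are not significant by their q value.

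Heterochromatin is compacted, mostly silent chromatin that surrounds the centromeres in the fly. Su(var)205 encodes HP1a, whose chromodomain binds histone H3 methylated on lysine 9, and Su(var)3-9 encodes a methyltransferase that writes that mark. HP1b and HP1c encode relatives of HP1a that also occupy euchromatin. HP4 and HP5 encode proteins that associate with HP1a, Su(var)3-7 encodes a zinc-finger protein of heterochromatin, and Su(var)2-10 encodes the fly's PIAS-family SUMO ligase.

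Most of the members start beside another gene that is read in the opposite direction. A divergent protein-coding start site (TSS) lay within 500 bp upstream for 7 of the 8, or 87.5%, against 27.3% of all protein-coding genes. The exception was Su(var)2-10. The gap between the start sites was 5 bp for HP1b and CG7246, 38 bp for HP1c and vret, 93 bp for Su(var)3-9 and Set, and 224 bp for Su(var)205 and Ssb-c31a. It was 251 bp for HP4 and CG8209, 302 bp for Su(var)3-7 and Ravus, and 399 bp for HP5 and Evi5. A peak in such a gap cannot be assigned to 1 of the pair.

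The DNA under promoter summits of 6 members is shown because most of it lies in these narrow gaps, so it belongs to both genes of a pair. The stretches are on the plus strand of dm6, from the RefSeq copy of the assembly, within 100 bp of the summit and clipped where an annotated exon begins. Capitals mark the hexamer TATAAA, runs of AAAAAA or more, the word CGATA and its longer palindromic form TATCGATA, on either strand. They come from chr3L:7976155-7976355 (HP4), chrX:9081084-9081169 (HP1b), chrX:11454387-11454587 (HP5), chr2L:8211152-8211346 (Su(var)205), chr3R:13264062-13264198 (Su(var)3-7) and chr3R:15263459-15263551 (Su(var)3-9).
HP4: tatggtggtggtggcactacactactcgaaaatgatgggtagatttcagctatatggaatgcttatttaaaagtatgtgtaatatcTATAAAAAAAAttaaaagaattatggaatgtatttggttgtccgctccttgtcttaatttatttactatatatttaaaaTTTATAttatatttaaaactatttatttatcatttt
HP1b: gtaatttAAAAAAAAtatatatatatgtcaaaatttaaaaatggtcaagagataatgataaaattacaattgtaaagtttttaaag
HP5: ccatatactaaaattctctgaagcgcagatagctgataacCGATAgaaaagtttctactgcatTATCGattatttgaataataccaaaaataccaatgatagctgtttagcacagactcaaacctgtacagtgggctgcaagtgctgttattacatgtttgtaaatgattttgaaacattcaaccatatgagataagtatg
Su(var)205: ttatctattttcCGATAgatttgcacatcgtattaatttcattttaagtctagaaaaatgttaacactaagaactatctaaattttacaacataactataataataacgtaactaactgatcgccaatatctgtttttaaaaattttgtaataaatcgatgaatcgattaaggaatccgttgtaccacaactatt
Su(var)3-7: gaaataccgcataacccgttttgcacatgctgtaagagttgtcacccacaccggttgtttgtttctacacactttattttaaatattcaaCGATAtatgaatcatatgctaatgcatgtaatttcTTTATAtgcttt
Su(var)3-9: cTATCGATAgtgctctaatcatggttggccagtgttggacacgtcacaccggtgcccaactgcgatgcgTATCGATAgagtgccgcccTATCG

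The stretch of HP1b is the exception among the 6, because it is an intron of that gene and not a gap between genes. The first 3 stretches lie at IDR summits. The Su(var)205 stretch lies at a pooled summit, the Su(var)3-7 stretch at a summit of replicate 1 and the Su(var)3-9 stretch at a summit of replicate 2, taken from the IDR list, else the pooled list, else the replicate with the strongest place.

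IDR summits marked the promoters of HP4, HP1b and HP5 and of no other member. These 3 of 8 genes (37.5%) compare with 22.8% of all protein-coding genes that had such a summit, at most 500 bp from a TSS. Among the 7 members with a divergent neighbour the share was 42.9%, and among all 3815 protein-coding genes with one it was 42.7%, against 15.3% of the other protein-coding genes. Once divergent neighbours are taken into account, the members' share is near the background, and with 8 genes no test was made. Among the 4736 strongest peaks of each replicate, 4 members had a promoter summit in replicate 1, 5 in replicate 2 and 3 in replicate 3, a mean of 4.0 ± 1.0 (SD, n = 3). With the strongest 2368 IDR peaks 2 members had one, against 13.2% of all protein-coding genes. For the replicates the share of all protein-coding genes was 21.8%, 23.9% and 20.8% in the same lists. The share among genes with a divergent neighbour was computed for the IDR list only.

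**Figure D1:**
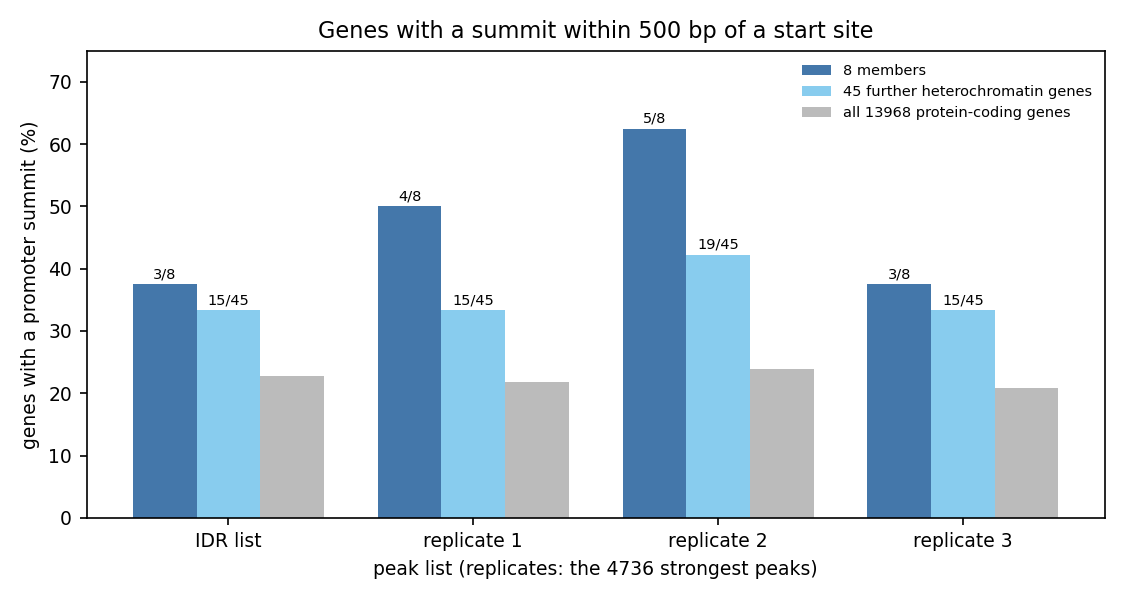
Percentage of genes (y axis) with a summit within 500 bp of a start site in the IDR list and in the 4736 strongest peaks of each replicate (x axis). Blue bars are the 8 members, light blue bars 45 further heterochromatin genes and grey bars all 13968 protein-coding genes. The members stand at 37.5% to 62.5% and all genes at 20.8% to 23.9%. The grey bars do not take divergent neighbours into account, which most members have.

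HP4, for an HP1a-associated protein, had the strongest promoter peak of the group. The gene lies at 3L 7975438 to 7976154 on the minus strand. Its IDR summit at 7976255 lay 101 bp upstream of its TSS and 151 bp upstream of that of CG8209, with a signal of 532 and place 750. The summit stood at place 800 in replicate 1, 727 in replicate 2 and 1049 in replicate 3, with signals of 185, 209 and 125. All 3 replicate summits fell within a narrow range, 91 to 103 bp upstream of the TSS. Of 2660 IDR peaks at promoters, 18.2% had a higher signal. In replicate 3 the peak ended at 7976254, 1 bp short of the IDR summit.

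HP1b, for a chromodomain relative of HP1a, came next. The gene lies at X 9081063 to 9082746 on the plus strand and has 2 annotated start sites, at 9081063 and 9081254. The IDR summit at 9081138 lay between them, 75 bp downstream of the first and 116 bp upstream of the other, and 81 bp upstream of the TSS of CG7246. Its signal was 335 and its place 1688, and it stood at places 2230, 1966 and 1509 in replicates 1, 2 and 3. The replicate summits lay 73 to 90 bp downstream of the first TSS. Among IDR peaks at promoters, 38.9% were stronger.

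HP5, for another HP1a-associated protein, had the weakest of the 3 IDR promoter peaks. The gene lies at X 11454786 to 11459227 on the plus strand. Its summit at 11454487 lay 299 bp upstream of the TSS of HP5 and closer to Evi5, a gene for a GTPase-activating protein, at 101 bp from the nearest of the start sites of that gene. The signal was 191 and the place 3880, with 84.1% of IDR promoter peaks stronger. The strongest promoter summit was in place 2293 in replicate 1, 4372 in replicate 2 and 3149 in replicate 3. These summits were spread over 204, 326 and 482 bp upstream, unlike those of HP4 and HP1b. That of replicate 3, in place 3149, lay inside Evi5, 34 bp and 82 bp downstream of start sites of that gene. At the IDR summit itself, replicate 3 had only a peak in place 23837. A promoter limit of 200 bp removes HP5 from the IDR count and leaves 2 members, and the share of all protein-coding genes was not computed at that limit.

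The order of these 3 genes was the same in the IDR list and in each replicate. The places of HP4, 727 to 1049, did not overlap those of HP1b, 1509 to 2230. HP5, at 2293 to 4372, began just past HP1b, whose weakest place was 2230 against 2293 for the strongest of HP5.

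**Figure D2:**
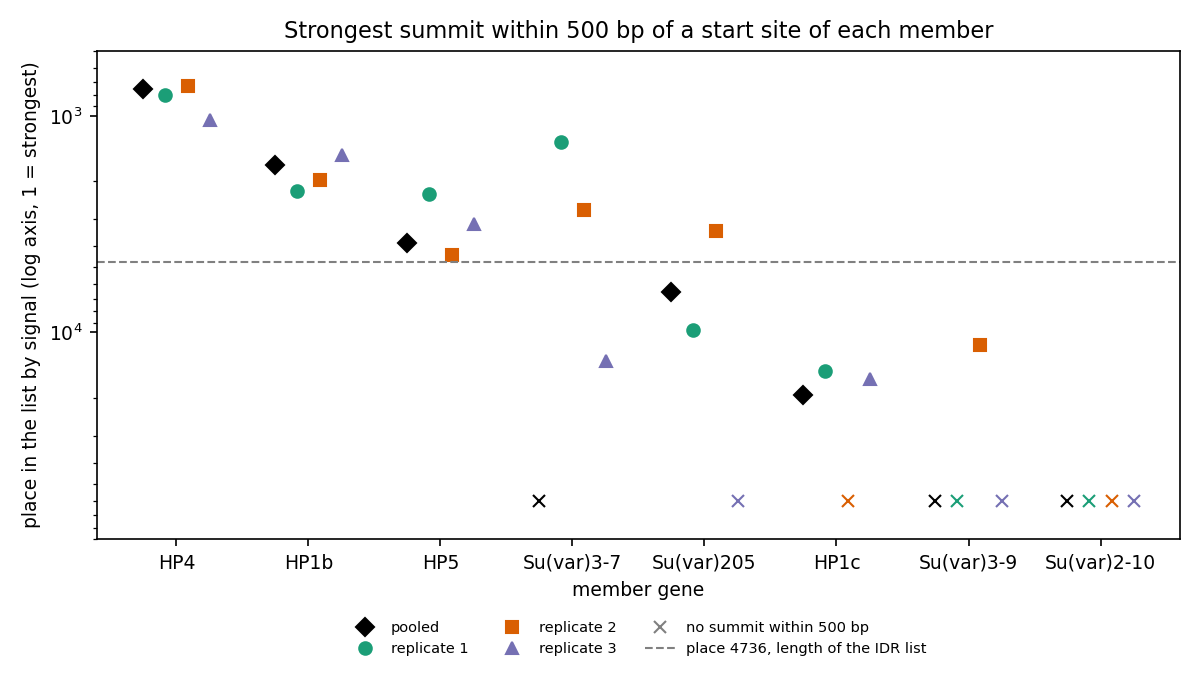
Place of the strongest summit within 500 bp of a start site of each member (y axis, logarithmic, 1 is the strongest) in the pooled list and the 3 replicate lists; crosses at the bottom mark lists with no such summit. HP4, HP1b and HP5 lie above the dashed line at place 4736 in all 4 lists, while Su(var)205 and Su(var)3-7 cross it and Su(var)2-10 has no summit in any list.

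The gene for HP1a, Su(var)205, had no IDR summit at its own promoter. It lies at 2L 8209626 to 8211122 on the minus strand, with Ssb-c31a, a gene for a single-stranded DNA-binding protein, on the other side of the gap. The pooled list had a summit there at 8211252, 130 bp upstream of Su(var)205 and 95 bp upstream of Ssb-c31a, with a signal of 128, place 6531 and a −log10 q of 2.26. Replicate 2 had it in place 3410 with a signal of 89.2 and a −log10 q of 3.86. Replicate 1 had it in place 9743 with a signal of 34.3 and a −log10 q of only 0.719, and replicate 3 had none. The replicates thus disagreed on this promoter by presence as well as by place. A much stronger IDR peak lay 1877 bp upstream, at 8212999 just inside CG8360, at signal 1512 and place 88. Its replicate places were 122, 86 and 78, and it lay 40 bp downstream of a start of CG8360 and 97 bp upstream of that of CG8372, so it was nearer to both than to Su(var)205.

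Su(var)3-7 had a strong promoter summit in replicates 1 and 2, a weak one in replicate 3 and none in the pooled list. The gene lies at 3R 13264364 to 13270038 on the plus strand. In replicate 1 its promoter had a summit 266 bp upstream with a signal of 141, place 1315 and a −log10 q of 3.67. That summit was nearer to Ravus, at 37 bp from its TSS, and another in place 3398 lay 50 bp upstream of Su(var)3-7. In replicate 2 the summit lay 184 bp upstream and 119 bp from the TSS of Ravus, with a signal of 102 and place 2707. In replicate 3 it lay 141 bp upstream, with a signal of 28.7, place 13514 and a −log10 q of only 1.07. Replicates 1 and 2 were thus inside the 4736 strongest peaks and replicate 3 far outside. No pooled peak overlapped the gap, and the nearest pooled summit within 2 kb lay 1530 bp upstream, in place 24943. Such a case was rare: of 3557 strongest peaks of replicate 1 whose summit lay in some peak of both other replicates, 31 (0.872%) overlapped no pooled peak. Since the IDR peaks are a part of the pooled list, this promoter could not enter them.

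The remaining 3 promoters had weak summits or none. HP1c, at 3R 22745620 to 22746605 on the plus strand, had a pooled summit 222 bp upstream in place 19431, and replicate summits in places 15025 and 16477 in replicates 1 and 3 and none in replicate 2. That pooled summit lay inside vret, a gene of the Piwi-interacting RNA pathway, and another of nearly equal signal, in place 19767, lay 8 bp upstream of HP1c in the gap. Su(var)3-9, at 3R 15259864 to 15263458 on the minus strand, shares its annotated TSS with eIF2gamma, a translation initiation factor gene, and stands opposite Set, a histone chaperone gene. It had a promoter summit only in replicate 2, 83 bp upstream in place 11380, with a −log10 q of 1.71. Su(var)2-10, at 2R 9116122 to 9122000 on the plus strand, had 0 promoter summits in all 5 lists.

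The strongest peak near any member lay just past the end of Su(var)2-10. Its summit at 9122187 was 187 bp beyond the 3′ end, 62 bp downstream of one TSS of GstE13, a glutathione S-transferase gene, and 137 bp upstream of another. The signal was 1677 and the place 62, with places 70, 57 and 74 in the replicates. The replicate summits lay at most 10 bp from it. Within Su(var)2-10 itself no list had a summit.

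In all, 7 IDR summits lay in a member gene or within 2 kb of it, at 5 of the 8 genes (62.5%, against 37.6% of all protein-coding genes). Divergent neighbours, which most members have, were not taken into account in these shares, and their effect on them was not tested. Some of the 5 genes were counted only through a peak at the promoter of a neighbour. Of the 7 summits, 3 were at the member's own promoter, 3 at the promoter of a neighbour and 1 in an intron. Over the whole IDR list, 2660 of 4736 peaks were at a promoter. Windows drawn around genes hold start sites by design, so the 2 sets of peaks are not alike. The neighbour peaks were those by CG8360 and GstE13 and a summit at X 9082644, inside HP1b but 287 bp upstream of APC4, an anaphase-promoting complex subunit gene. The last reached 193 in signal and stood at 3159, 3155 and 28289 in replicates 1, 2 and 3. The intronic summit, at X 11453098 in Evi5 and 1688 bp upstream of HP5, reached 229 and stood at 6808, 2672 and 1975. Only 2 of the 7 summits lay inside a member gene, both in HP1b.

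The edge of the 2 kb window fell between 1877 bp, the distance of the CG8360 peak from Su(var)205, and 3557 bp, where the next IDR summit lay beyond HP5, in an intron with a signal of 282. The nearest IDR summit to Su(var)3-7 was 94735 bp away. For HP1c it was 4065 bp away with a signal of 494, within 500 bp of start sites of CG7029, Usp12-46 and rumi. For Su(var)3-9 it was 9183 bp away.

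The full lists added weak summits. The pooled list had 20 summits at the members or within 2 kb, the replicates 17, 22 and 19. Of these, 7 pooled summits and 8, 8 and 6 replicate summits were at a member's own promoter. Coding exons held 2 of the pooled summits and 2, 3 and 7 of those in replicates 1, 2 and 3, so replicate 3 had most of them. The share of such summits over each full list is not given here, so whether this is particular to the members is not known. With all peaks counted, a promoter summit was found for 5 members in the pooled list, against 48.8% of protein-coding genes. It was found for 6, 6 and 5 members in the replicates, against 44.5%, 52.5% and 50.1%.

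**Figure D3:**
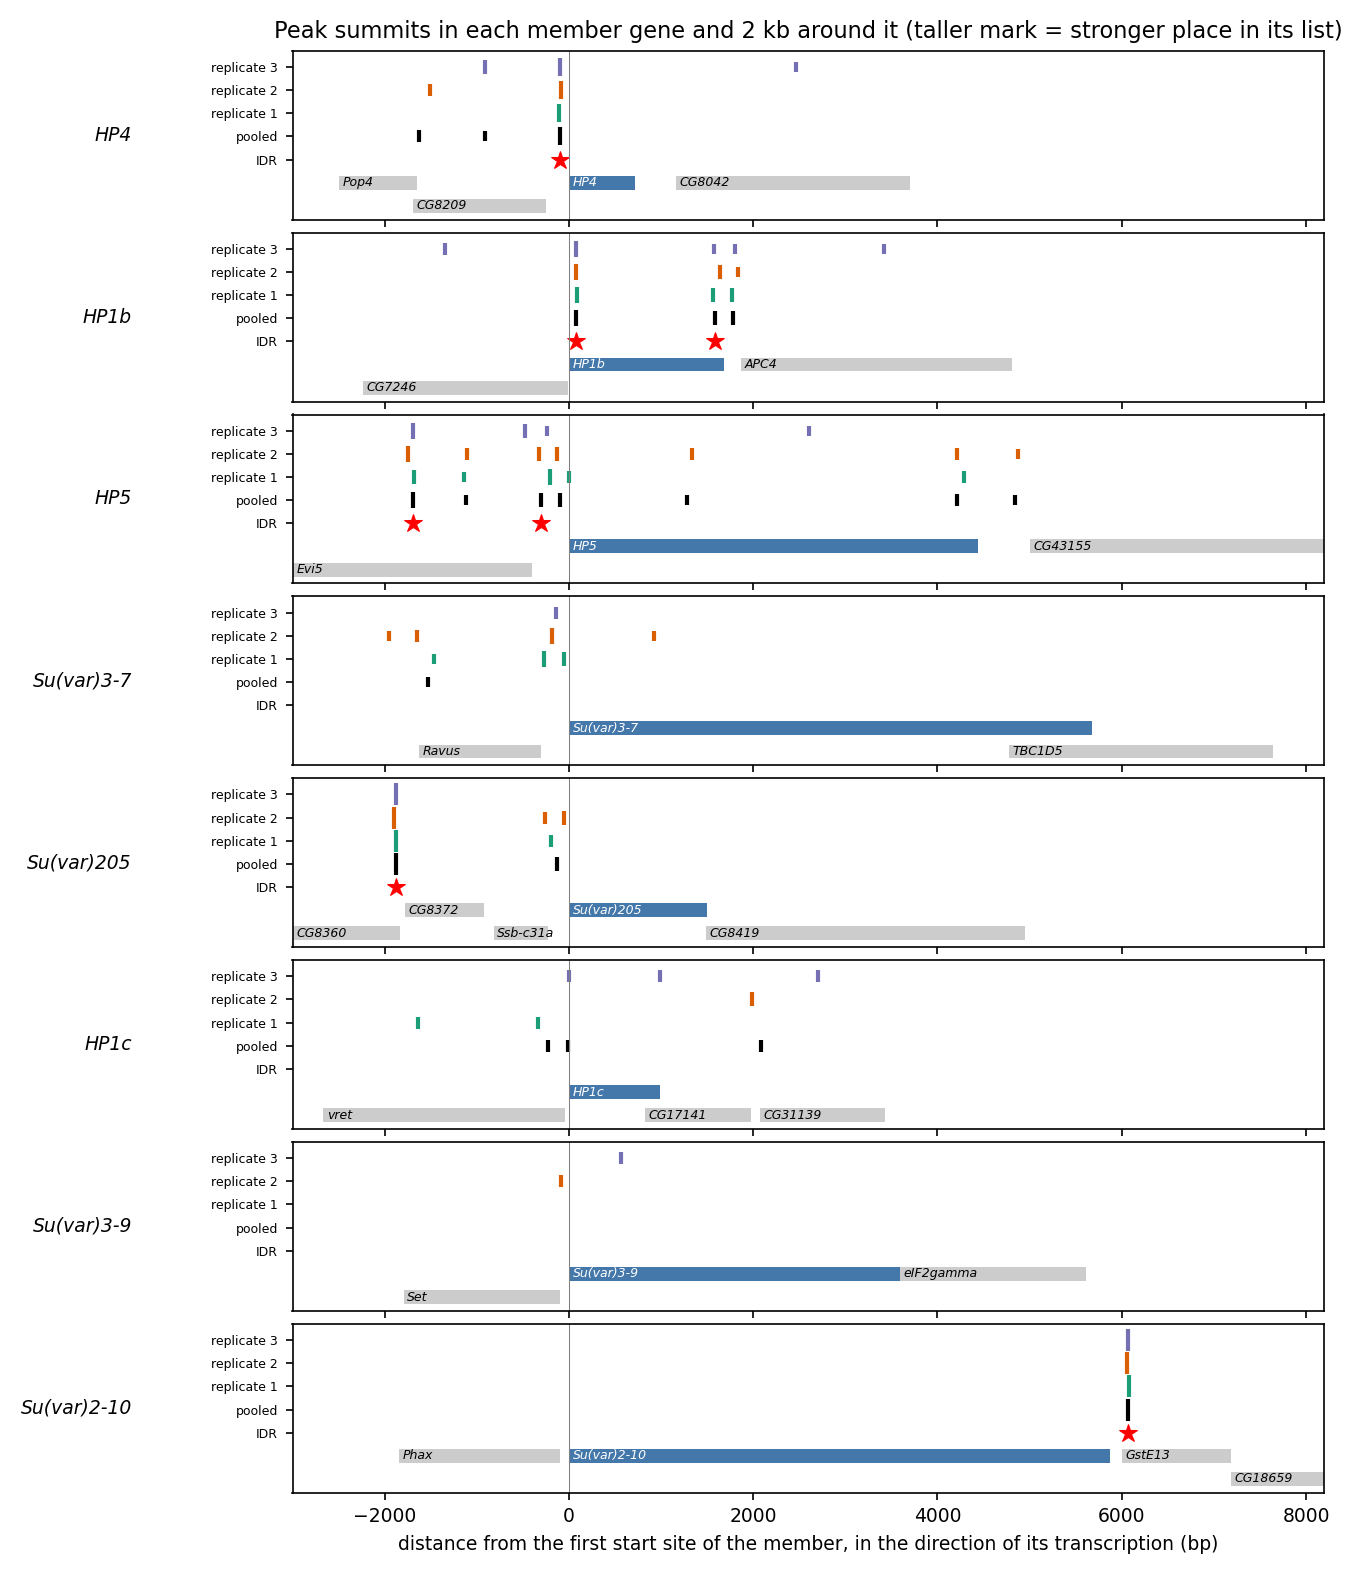
Summits in each member gene and 2 kb around it, by distance from the member's first start site in the direction of its transcription (x axis, bp), with a row per peak list. Blue bars are the members, grey bars other genes, red stars IDR summits, and taller marks have stronger places; the IDR stars sit at the starts of HP4, HP1b and HP5, at neighbours of HP1b, Su(var)205 and Su(var)2-10, and in an intron of Evi5.

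The DNA under the promoter summits ranged widely in base composition. Within 100 bp of the summit, taken from the lists in the same order, GC content was 24.4% at HP4, 31.8% at HP1b and 33.8% at HP5, against a mean of 35.0% ± 7.85 (SD over 2660 IDR promoter summits). At the weaker promoters it was 26.4% at Su(var)205 and 35.3% at Su(var)3-7, but 50.7% at HP1c and 49.8% at Su(var)3-9. The 2 GC-rich windows were those of HP1c and Su(var)3-9, which had no place better than 11380 in any list.

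Motifs were searched on both strands in the same 201 bp windows. The words searched were TATCGATA (the DNA replication-related element), the shorter CGATA within it, GAGAG (the core of the GAGA factor site), GGTCACAC (the core of promoter Motif 1), CAGCTG (an E-box), CAGGTA (as bound by Zelda), TATAAA (the TATA box) and AAAAAA. TATCGATA was found only at Su(var)3-9 among the 7 members with a promoter summit, whereas 7.14% of IDR promoter summits held it. CGATA was found at HP1b, HP5, Su(var)205, Su(var)3-7 and Su(var)3-9, against 36.3% of IDR promoter summits. A run of AAAAAA was found at HP4 and HP1b, against 47.9%, and TATAAA at HP4 and Su(var)3-7, against 40.3%. At HP4 the 2 overlap in a single stretch of the printed sequence. GAGAG was found at HP1b, against 19.0%, and none of the 8 sequences at HP1c. GGTCACAC was in none of the 7 windows and in 5.41% of IDR promoter summits. The E-box and the Zelda-type word were also in none, and in 9.47% and 3.80%. The windows of Su(var)205, HP1c, Su(var)3-7 and Su(var)3-9 are not at IDR summits, so the shares come from a set unlike these. The matches describe the windows only.

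For each of the 3 genes with an IDR promoter summit, the gene with the nearest places across the 3 replicates was found. For HP4 it was Vinc, the vinculin gene, at places 798, 788 and 1021. For HP1b it was Idua, a lysosomal iduronidase gene, at 2395, 2010 and 1598. For HP5 it was MTF-1, a metal-responsive transcription factor gene, at 2278, 4310 and 2832. Likeness was the sum over replicates of absolute differences in log10 place, which was 0.0478, 0.0655 and 0.0551 among 4444 other genes with a promoter summit in every replicate.

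A further list of 45 genes of heterochromatin and its silencing pathways was described in the same way. Of these, 15 (33.3%) had an IDR promoter summit, against 22.8% of all protein-coding genes. The replicates gave 33.3%, 42.2% and 33.3% of the list among their strongest peaks, against 21.8%, 23.9% and 20.8% of all protein-coding genes. Divergent neighbours were not taken into account for this list, so these shares may differ for that reason, which was not tested. Of 14 genes for HP1-associated proteins 7 had one, and of 5 for histone methyltransferases and a cofactor 3 had one. Of 6 for demethylases, a kinase and deacetylases 3 had one, of 4 satellite and lamina genes 1, of 9 Piwi pathway genes 1, and of the 2 variegation genes 0. Each gene was placed in 1 group only. Kdm2, a demethylase gene, and NSD, a methyltransferase gene, both with an IDR promoter summit, were counted as HP1-associated and not with the enzymes.

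The other HP1 relatives had no promoter summit at all. The genes rhi, HP6, HP1D3csd, HP1e and HP1Lcsd encode proteins with a chromodomain or a chromo shadow domain, and rhi acts in the germ line. In all 5 lists, 0 of these 5 genes had a summit within 500 bp of a TSS, although the full pooled list reached 48.8% of protein-coding genes. The IDR list also had 0 summits in these genes or within 2 kb of them. With 5 genes this is a description, and their difference from HP1b was not tested.

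The strongest promoter of the further list was that of Hmt4-20, which encodes a methyltransferase of histone H4 lysine 20. Its signal was 883, its summit lay 224 bp upstream, and its places were 559, 398 and 142 in the replicates. Next was row, for a zinc-finger partner of HP1c, at 728, which held places 182, 797 and 1080. The promoter of row was thus marked in every replicate, while that of HP1c itself had its best place at 15025. Sirt1, a deacetylase gene, had a signal of 580, and cuff, a gene of the Piwi-interacting RNA pathway, had 436. All 4 were above the median of 281 over IDR promoter peaks.

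The other genes of the list with an IDR promoter summit, several of which encode writers and erasers of histone marks, had signals from 178 to 391. Kdm2, a demethylase gene, had a signal of 391, but its places of 8964, 1624 and 340 differed widely between the replicates. JIL-1, for a histone H3 kinase that opposes heterochromatin spreading, had 344 with places 1538, 1960 and 2106. E(var)3-9 had 301, Kdm4B, a lysine demethylase gene, 266, and G9a, a lysine 9 methyltransferase gene, 251. NSD, for a lysine 36 methyltransferase, had 234, Lam, the B-type lamin gene, 233, and vig 232. The weakest 3, named after their values were seen, were wde at 219, XNP at 219 and ADD1 at 178. G9a and wde had no promoter summit in replicate 1, and ADD1 had none in replicate 3.

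**Figure D4:**
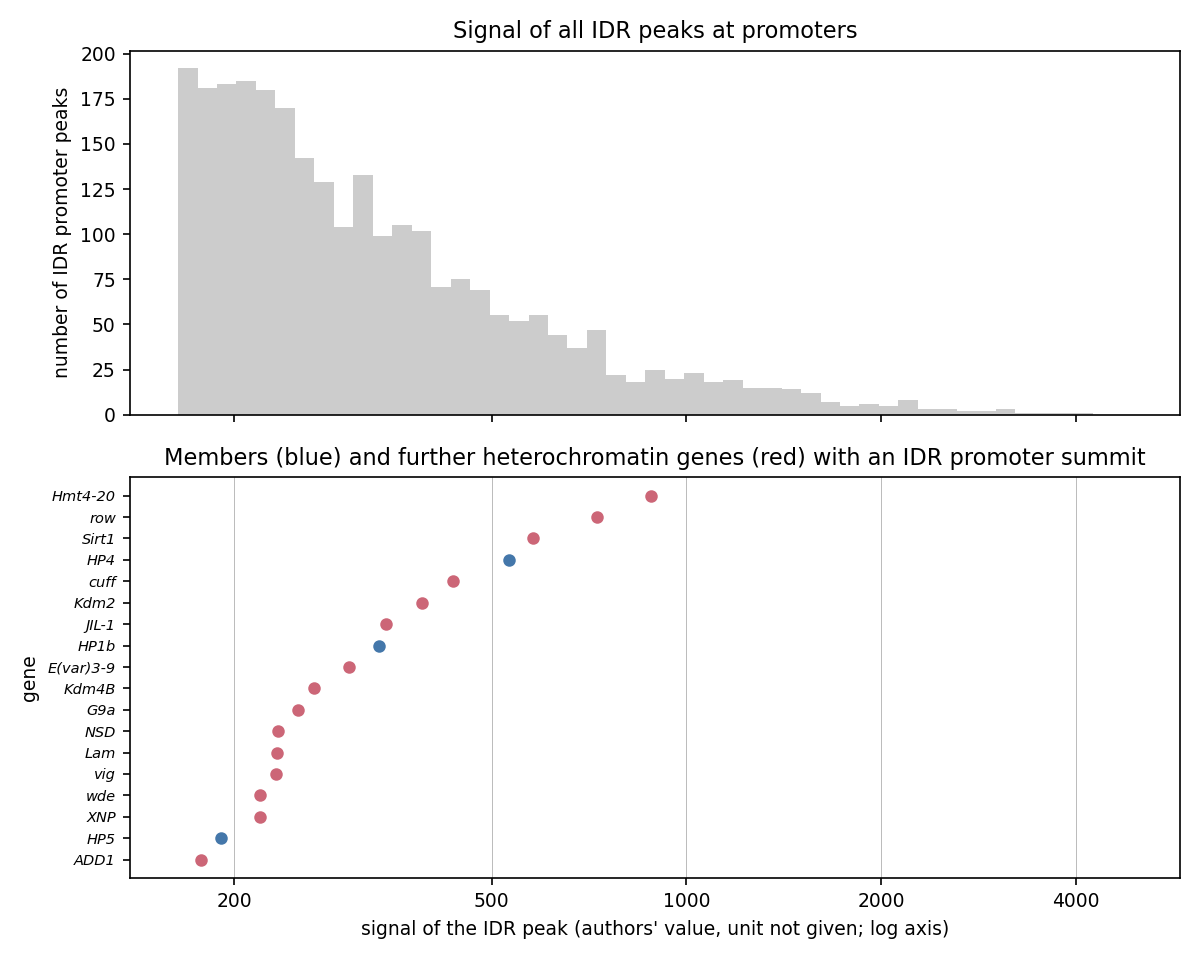
Upper panel, number of IDR peaks at promoters (y axis) by signal (x axis, the authors' value in an unstated unit, logarithmic); lower panel, the signal of each member (blue) and further gene (red) with an IDR promoter summit. Hmt4-20 at 883 and row at 728 lie above HP4 at 532, HP1b at 335 lies near the middle, and HP5 at 191 near the lower end of all promoter peaks, whose median was 281.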

How the data were processed

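The 5 deposited narrowPeak files, on dm6, hold the peaks of each of the 3 replicates, of the pooled replicates and of the IDR selection. Per the labels' description files, a replicate's peaks were called from its own alignments together with 1 unidentified file common to all calls, the pooled peaks from the 3 alignments together with it, and the IDR selection from these lists. The deposited signal and the deposited −log10 q of each peak are the authors' values. Aligner, peak caller and IDR cutoff are not named in the sources used here.

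Summits were assigned to genes of Ensembl release 115, leaving out annotated transposable elements. A promoter summit lay within 500 bp of a TSS of any transcript, so a summit can count for several genes. All 8 members had the same arm, start and end in RefSeq. Gene assignment was tested on simulated summits. Python 3.11.15, numpy 2.4.6, pandas 2.3.3 and matplotlib 3.10.9 were used. The members, the further list and the motifs were chosen with earlier results of these data known, so counts were set beside the share of all protein-coding genes and no test was run. The depth is unknown, and no interval that needs it is given. All members are named. Of the further list, the 12 strongest were to be named.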

Additional observations from a re-analysis of the deposited data

How the results depend on the processing

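Of 43 alternatives to these counts and signals, 33 stayed within 1.5 times the main value. The 3 members with an IDR promoter summit became 5 with all pooled peaks. The 15 genes of the further list became 28 with all pooled peaks, or 62.2% against 48.8% of all protein-coding genes. They became 7 with the strongest 2368 IDR peaks, or 15.6% against 13.2%, near the share of all genes. Without the 2 kb flank, the 5 members with an IDR summit became 1, the 7 summits became 2, and the 6 of them at promoters became 2. The share of all protein-coding genes was not computed without the flank. With the strongest 2368 IDR peaks the 7 summits became 4. Only HP1b (1 of 8) had its IDR promoter summit inside a strong peak of every replicate, where the peak of HP4 in replicate 3 missed by 1 bp. Leaving out 1 replicate at a time gave 1 to 3, with 3 when replicate 3 was left out. The count was 2 with all peaks of each replicate and 2 with replicate summits within 100 bp. The share of all protein-coding genes was not computed for this measure, so these counts have no background to be set against. Leaving out 1 replicate moved the mean of 4.0 members per replicate to between 3.50 and 4.50. With promoters of 200 bp HP5 had no IDR promoter signal, so that setting gave no value for HP5 and is not counted among the 43. An alternative added after seeing the data, pooled peaks with a −log10 q of at least 2, gave 4 members and is counted among the 43. For it, too, the share of all protein-coding genes was not computed. Unknown depth limits every absence: a promoter without a summit may have a peak below the end of a 30000-peak list.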
